A study of Mus musculus with 2 samples.

Results

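The AP-1 family transcription factors were followed here through every probe set annotated to 1 of 10 genes and to no other gene: Fos, Fosb, Fosl1, Fosl2, Jun, Junb, Jund, Atf3, Maff and Batf. This gave 14 of the 45101 probe sets on the array, and 10 of the 18193 genes that have a probe set of their own. Maff and Atf3 read more than 2-fold higher in Ezrin T567D-positive hepatocytes, Fos, Jun, Junb and Jund 1.09-fold to 1.34-fold higher, and the other 4 were too dim to compare. Transcripts were measured in hepatocytes of male FVB mice, aged 6 to 8 weeks and kept on chow per the growth protocol, on 1 Affymetrix Mouse Genome 430 2.0 array per group. All mice had received 10 µg of the plasmid PT3EF5α EzrinT567D and 0.8 µg of pCMV/SB, which supplies a Sleeping Beauty transposase, in a volume of 2 ml by hydrodynamic tail vein injection, a rapid infusion that drives DNA into hepatocytes. Ezrin ties the plasma membrane to cortical actin, and in T567D an acidic residue mimics phosphorylation of the threonine that opens the protein. Hepatocytes were isolated by collagenase digestion 1 week later and sorted on GFP into an Ezrin T567D-positive and an Ezrin T567D-negative fraction, so that both groups passed through injection, digestion and sorting. The sorted negative cells are the only control used here. The description fields conflict with this account, since they name 2 months for both samples and fast food rather than chow for the positive one. If they hold, diet and Ezrin T567D cannot be told apart. How many mice gave the RNA is not given in the sources used here.

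AP-1 is a dimer of proteins with a basic DNA-binding region and a leucine zipper. Jun proteins pair with themselves or with Fos proteins, and ATF3, BATF and the small MAF proteins belong to related branches that share partners with them. Many of these genes are immediate early genes, which are transcribed within minutes of a growth factor, a stress or a wound, through MAP kinases that act on factors already bound to their promoters. In the liver, Fos, Jun and Atf3 are known to be switched on by partial hepatectomy, injury and the isolation of hepatocytes.

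The members divided into those well above background and those near or below it. The background floor of each array was the 95th percentile over 84 chemosensory receptor probe sets (olfactory, vomeronasal, bitter taste and trace amine). These were taken as an approximate background, and whether hepatocytes express any of them was not checked. The floor was 252.66 signal units for the negative and 334.04 for the positive array. Signals are MAS5 values on a linear scale, scaled by the submitters to the same trimmed mean of 500.0 in both arrays. Of the 14 probe sets, 7 exceeded the floor in both arrays, 1 in the negative array only and 6 in neither. Those 7 represent 6 genes, Fos, Jun, Junb, Jund, Atf3 and Maff, and all 7 read higher in the positive array. Of all 8362 genes measured in both arrays 50.6% read higher there, and of all single-gene probe sets measured in both, 52.9% did. As each group is 1 array, the groups cannot be tested against each other and no p-value is printed.

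**Figure D1:**
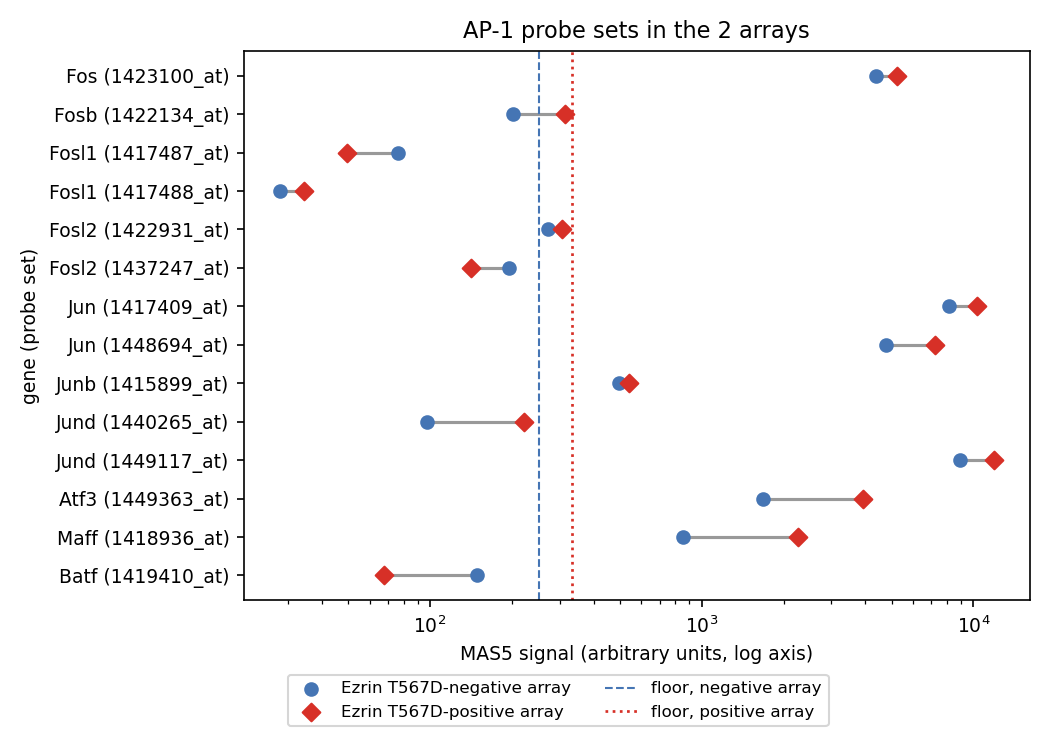
MAS5 signal (log axis) of the 14 AP-1 probe sets, with a circle for the Ezrin T567D-negative and a diamond for the Ezrin T567D-positive array, 1 array each; the vertical lines are the background floors at 252.66 and 334.04. The 7 probe sets to the right of both lines all have the diamond on the higher side, with the widest gaps for Atf3 and Maff.

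The only error at hand comes from probe sets that read the same gene. For 3182 genes whose 2 brightest probe sets were both measured in both arrays, the log2 ratios (positive over negative) within a pair differed by 0.26 at the median, with an SD of 0.42. In 2.83% of the pairs they differed by 2-fold or more. The SD of 0.42 over all pairs, called the technical SD below, leaves out the spread between animals. It is the SD of a difference between 2 ratios, not of a single ratio. Error that both probe sets of a gene share cancels in it.

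Maff, a small MAF protein that has a zipper but no activation domain of its own, had the highest ratio of the family. Its probe set 1418936_at read 851.8 in negative and 2252.6 in positive cells, a log2 ratio of 1.40 (2.64-fold). Of the 13375 single-gene probe sets measured in both arrays, 27 had a ratio at least as high, Maff included, which is 0.202%. Both signals lay well above the floors, at 3.37 times that of the negative and 6.74 times that of the positive array.

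Atf3, a stress-induced factor of the ATF/CREB branch that can repress or activate with Jun partners, was the other member past 2-fold. Its probe set 1449363_at read 1674.5 and then 3912.9, a log2 ratio of 1.22 (2.34-fold), and 64 probe sets (0.479%), Atf3 included, had a ratio as high or higher. The ratios of Maff and Atf3 differed by 0.18, within the technical SD. Each of the 2 genes is seen through a single probe set, so no second probe set bears on its ratio.

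These 2 were the only members that passed 2-fold, and by their brightest probe set the only ones whose ratio exceeded the technical SD. That is 2 of 6 measured members, where 1.11% of all genes measured in both arrays were 2-fold higher and 12.3% were higher by more than the technical SD. No measured member was 2-fold lower, against 0.61% of those genes. Against the smaller SD of 0.335 for brighter pairs, Jun (0.337) and Jund (0.417) lay past the limit too. Both limits are SDs of a difference between 2 ratios. If the errors of the 2 probe sets are independent, the SD of 1 ratio is smaller. A ratio below the technical SD is therefore not shown to lie within error.

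The Jun genes, which encode the main partners of Fos proteins, read higher by smaller amounts. Jun itself has 2 probe sets. 1417409_at read 8136.2 in negative and 10280.5 in positive cells (log2 ratio 0.34, 1.26-fold), and 1448694_at read 4750.1 and 7190.3 (0.60, 1.51-fold). The pair put the same gene on the same side, with ratios 0.26 apart, and 49.5% of the gene pairs behind the technical SD lay at least that far apart. The brighter one stands for Jun in the counts, and it is the one with the smaller ratio. The second exceeded the technical SD.

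Jund, the member often described as present in resting cells, read 8912.3 and 11901.8 in probe set 1449117_at, a log2 ratio of 0.417 (1.34-fold). Jund was thus just under the technical SD of 0.419 and above the 0.335 of brighter pairs. Its other probe set, 1440265_at, was below the floor in both arrays at 97.3 and 222.6. Junb, which can oppose Jun at some promoters, read 497.5 and 541.9 in 1415899_at (0.12, 1.09-fold). Its signals were at 1.97 and 1.62 times the floors, and 48.3% of the measured probe sets with a mean signal up to 1000 had a ratio as high or higher. Junb therefore stood in the middle of probe sets of like brightness.

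Fos, the classic immediate early partner of Jun, was bright in both fractions and differed little. Its probe set 1423100_at read 4365.0 and 5214.9, a log2 ratio of 0.26 (1.19-fold), at 17.3 and 15.6 times the floors. Ratios in this table fall with brightness, with a median of 0.11 over 7604 probe sets with a mean signal up to 1000, -0.05 over 5316 between 1000 and 10000, and -0.12 over 455 above 10000. Within its own class, 14.9% of probe sets had a ratio at least as high as Fos, 10.4% as high as the brighter and 3.29% as high as the dimmer Jun probe set, and 3.30% as high as Jund in the brightest class.

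The other Fos proteins and Batf gave no ratio. Fosb, a close relative of Fos, read 201.3 and 314.6, below the floor in each array, at 0.797 and 0.942 times the respective floor. Fosl2 (Fra-2) read 272.5 and 306.5 in 1422931_at, above the floor in the negative array only although the positive signal was larger, because the floors differ, so it has no direction. Its other probe set, 1437247_at, read 195.3 and 141.9.

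Fosl1 (Fra-1), which many growing and tumour cells make, read 76.2 and 49.5 in 1417487_at and 28.0 and 34.4 in 1417488_at. Batf, a factor of lymphocytes that pairs with Jun but lacks an activation domain, read 149.5 and 67.5. A signal under the floor is a limit of these probe sets and does not show that the transcript is absent.

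**Figure D2:**
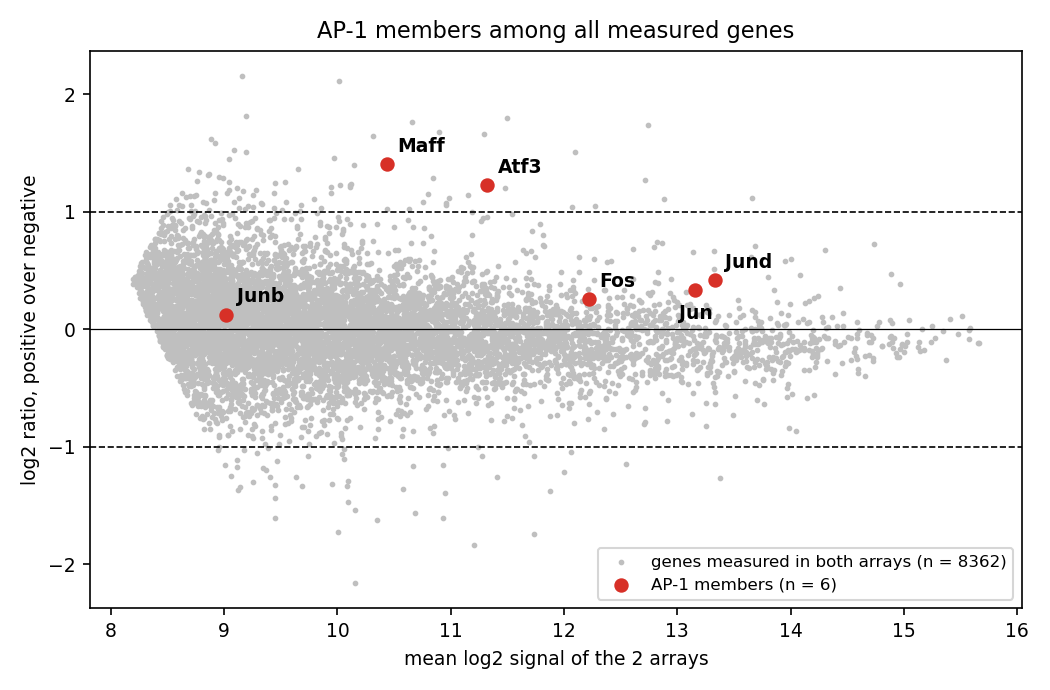
Positive-over-negative log2 ratio against the mean log2 signal of both, for the 8362 genes measured in both arrays (grey) and the 6 AP-1 members among them (red), 1 point per gene from its brightest probe set; dashed lines mark 2-fold. Maff at 1.40 and Atf3 at 1.22 lie above the upper line, while Fos, Jun, Junb and Jund lie between 0.12 and 0.42.

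To set the 2 members past 2-fold beside members that differed little, the regions around the start sites of Maff and Atf3 are shown with those of Jun and Fos. Each runs from 250 bases before to 50 bases after a RefSeq start site on build GRCm38.p6, in the direction of transcription. Capitals mark matches to TGACGTCA (the cAMP response element), to TGACG (its first 5 letters), or to TGACATCA (a variant of the AP-1 site), on either strand. The windows lie at chr15:79347270-79347569 on the plus strand for Maff (the second of 3 start sites listed), chr1:191183284-191183583 on the minus strand for Atf3, chr4:95052173-95052472 on the minus strand for Jun and chr12:85473640-85473939 on the plus strand for Fos.
Maff: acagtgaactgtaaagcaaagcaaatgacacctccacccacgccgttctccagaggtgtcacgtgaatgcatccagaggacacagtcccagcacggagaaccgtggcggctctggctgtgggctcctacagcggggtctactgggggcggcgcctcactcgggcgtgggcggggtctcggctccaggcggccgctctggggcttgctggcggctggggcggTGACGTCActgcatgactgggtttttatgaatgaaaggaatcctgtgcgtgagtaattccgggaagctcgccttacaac
Atf3: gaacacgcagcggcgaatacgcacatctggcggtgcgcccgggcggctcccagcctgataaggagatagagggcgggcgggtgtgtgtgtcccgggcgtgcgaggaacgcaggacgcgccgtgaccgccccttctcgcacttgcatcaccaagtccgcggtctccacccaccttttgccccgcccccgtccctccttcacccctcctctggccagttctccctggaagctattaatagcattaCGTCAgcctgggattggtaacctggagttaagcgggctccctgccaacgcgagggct
Jun: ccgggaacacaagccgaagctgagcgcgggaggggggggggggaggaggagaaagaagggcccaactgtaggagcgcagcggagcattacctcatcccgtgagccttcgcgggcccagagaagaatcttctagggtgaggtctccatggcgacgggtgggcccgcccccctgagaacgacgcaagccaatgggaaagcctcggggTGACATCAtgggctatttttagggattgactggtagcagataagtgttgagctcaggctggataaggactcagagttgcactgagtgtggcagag
Fos: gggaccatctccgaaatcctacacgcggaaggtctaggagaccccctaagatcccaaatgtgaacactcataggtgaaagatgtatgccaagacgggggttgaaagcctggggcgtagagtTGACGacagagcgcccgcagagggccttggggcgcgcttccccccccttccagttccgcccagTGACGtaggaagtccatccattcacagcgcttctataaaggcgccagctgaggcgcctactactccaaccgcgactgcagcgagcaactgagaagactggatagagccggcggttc

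Of the 10 genes, 9 had windows in the RefSeq table, 11 windows in all, and Fosl1 was not matched. TGACGTCA lay in 1 of the 11, the Maff window shown, 29 to 22 bases before the start (-29 to -22), and in 1.79% of all 32851 windows. TGACG, which TGACGTCA contains, lay in 7 of the 11 and in 20.8% of all windows. In Fos it began at -129 and at -66, and in Atf3 the reverse strand held it from -7 to -3. TGACATCA lay from -45 to -38 in Jun and also from -45 to -38 in the third Maff window, and in 3.62% of all windows. The first Maff window held none of the motifs searched. What is marked for Maff beside the other genes therefore depends on the window shown. TGACG and TGACATCA were chosen after the sequences were seen, so their counts are descriptions only. The AP-1 site TGACTCA, found in 5.2% of all windows, and the CArG box, to which serum response factor binds (1.63%), matched in 0 of the 11. Sites more than 250 bases before a start were not searched, so 0 matches does not show that a promoter lacks the site. A match is a string of letters, and the arrays hold no measure of binding.

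Over the 6 measured members the median log2 ratio was 0.38, against 0.0043 over all genes measured in both arrays, and without Maff and Atf3 it was 0.30. Of the 15 pairs of these members, 8 differed in ratio by more than the technical SD. Each of the 8 set Maff or Atf3 against Fos, Jun, Junb or Jund, and the differences ran from 0.81 (Atf3 and Jund) to 1.28 (Maff and Junb). The other 7 pairs, among them every pair within Fos, Jun, Junb and Jund, differed by 0.080 to 0.29. This split holds for the main settings: Jund and Junb differed by 0.48 after quantile normalization and after loess correction, and the dimmer Jun probe set differed from Junb by 0.47, each above the technical SD.

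Other genes that can form AP-1 or MAF dimers were only partly measured. Counts in this and the following lists are over genes above the floor in at least 1 array, of which 44.9% were higher and 46.5% lower, 1.34% by 2-fold up and 0.58% by 2-fold down. Of 12 listed partners, 10 had a probe set of their own and 5 passed the floor, 3 of them higher and 2 lower, with a median of 0.05 and 0 past 2-fold. Mafk, another small MAF protein, read 606.5 and 755.9 (0.32). Mafg, also a small MAF protein, read 738.7 and 723.2 in 1448916_at (-0.03). Its other probe set was above the floor in the negative array only, at 319.8 and 149.3, and has no direction. Atf4, the effector of the integrated stress response and a known activator of Atf3, read 8100.2 and 9326.1 in 1438992_x_at (0.20) and 1649.5 and 1719.4 in 1448135_at (0.06). Mafk and Mafg thus lay more than 1 log2 unit below Maff in ratio.

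The kinases that carry signals to AP-1 showed no common direction. Of 19 genes of the JNK, ERK and p38 cascades, 15 had a probe set of their own and 11 passed the floor, 7 of them higher and 4 lower, with a median of 0.04 and 0 past 2-fold. Map2k3, a kinase that activates p38, had the largest ratio, -0.58 (1402.4 to 936.3), but its other probe set read 594.9 and 638.9 (0.10). Map2k6, another p38 activator, read 298.0 and 385.5 (0.37). Transcripts do not report the phosphorylation through which these kinases act.

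The phosphatases that switch MAP kinases off are themselves induced by the pathway. Of 11 Dusp genes, 8 passed the floor, 6 of them higher and 2 lower, with a median of 0.41. Over the 7 measured in both arrays, 5 higher and 2 lower, it was 0.30, and it was 0.23 with 1 floor for both arrays and 0.16 without a floor. Dusp6, which acts on ERK, was the 1 gene past 2-fold, at 1377.5 and 2994.9 (1.12, 2.17-fold). Dusp2 read 408.5 and 697.5 (0.77). Dusp1, which is induced together with Fos in many settings, read 6457.8 and 7235.2 (0.16).

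Factors that act on the Fos and Jun promoters were divided, with 5 of 10 above the floor higher and 5 lower, a median of 0.06 and 0 past 2-fold. Elk1, a partner of serum response factor, read 299.3 and 476.0 (0.67), and its other probe sets were below the floor. Mef2d differed in sign between its probe sets, at -0.49 (640.5 to 455.6) and 0.37 (430.0 to 556.1).

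Genes described as AP-1 targets were mostly higher where they could be measured, by an amount that depended on the floor. Of 20 listed, 18 had a probe set of their own, 9 were above the floor and 9 below it. Of the 7 measured in both arrays, 6 read higher and 1 lower, with a median of 0.45. The other 2, Plaur and Mmp9, were above the floor in the positive array only, which fixes their direction. Over all 9 the median was 0.49, but it fell to 0.16 with 1 floor for both arrays and to 0.25 with a pseudocount of 50. Plaur, the urokinase receptor, was the 1 gene past 2-fold, at 227.0, below the floor, and 596.1, at least 2.36-fold higher. Ccl2, a monocyte chemokine, read 279.8 and 433.6 (0.63). Trib3, a pseudokinase of the stress response, read 466.0 and 688.9 (0.56) in 1456225_x_at. Its other probe set was below the floor in both arrays, at 92.9 and 72.1. Several of the higher genes lay near the floors of 252.66 and 334.04: Ccl2, Hmox1 (274.4 and 373.8) and Vim (327.5 and 348.8). The matrix proteases Mmp3, Mmp10 and Mmp13 and the cytokine Il6 were below the floor in both arrays.

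Other immediate early genes ran both ways, more of them higher. Of 26 genes outside AP-1, 23 passed the floor, 15 higher, 7 lower and 1 without direction, with a median of 0.32 (14 higher and 6 lower among the 20 measured in both arrays), and 5 were 2-fold higher against 1.34% of all genes. These were Klf6 (2.36-fold), Ier2 (2.35-fold), Ccn1 (2.11-fold), Btg2 (2.08-fold) and Rhob (2.03-fold). None was 2-fold lower. Egr1, a zinc finger factor induced with Fos, read 4938.1 and 7928.3 (0.68), while Nr4a2 (-0.46), Klf2 (-0.48) and Socs3 (-0.39) were lower. The list was drawn up with earlier results on these arrays known, and is no independent evidence of its direction.

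**Figure D3:**
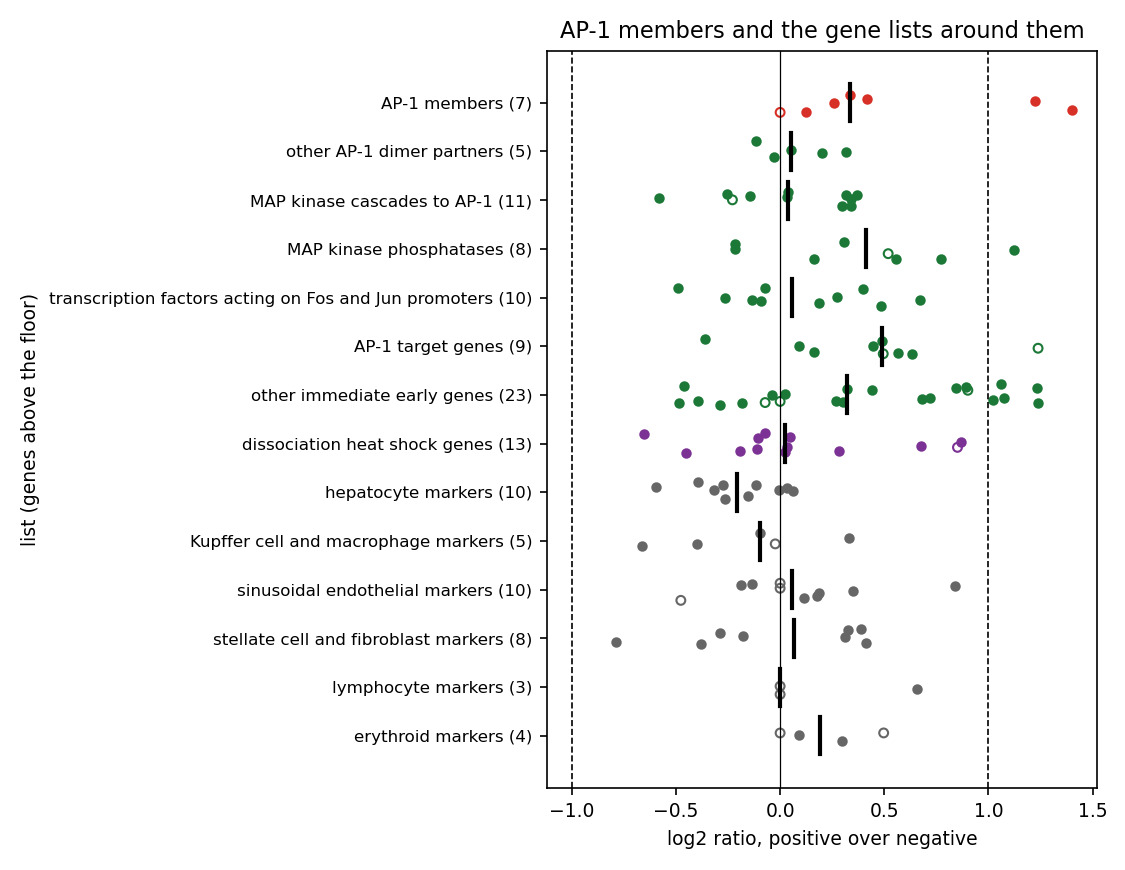
Positive-over-negative log2 ratio of each gene above the floor, by list, with the number of such genes in parentheses; filled points were measured in both arrays, open points are bounds or have no direction, bars are medians and dashed lines mark 2-fold. The median is 0.34 for the AP-1 members above the floor and 0.32 for the other immediate early genes, against 0.04 for the MAP kinase cascades.

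Collagenase digestion is known to induce AP-1 genes, and heat shock genes too. Of 13 heat shock genes past the floor, 7 read higher and 6 lower (median 0.03), 0 of them past 2-fold. Hspa1a (438.5 to 800.1, 0.87) and Hspa1b (1148.6 to 1836.2, 0.68, with its other probe sets at 0.60 and 0.55) were higher. Hspb1 was above the floor in the positive array only, at 209.6 and 455.9, so its log2 ratio of 0.85 is a bound. Bag3 (-0.65) and Hspe1 (-0.45) were lower. Their part in the AP-1 ratios was not tested.

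The labelled cell type was checked against its markers, and 10 of 10 hepatocyte markers with a probe set of their own (12 were listed) were above the floor, with median signals of 28604.3 and 26629.3. Their median log2 ratio was -0.21, with Pck1 at -0.60. These markers all have a mean signal above 10000, and the 455 measured probe sets that bright had a median of -0.12. Other liver cells also express Fos, Jun and Atf3, so their markers are given here. Kupffer cell and macrophage markers had 5 of 13 above the floor, 1 higher and 4 lower, and the signals of all 13 summed to 4200.1 for the negative and 3139.8 for the positive array. By their brightest probe sets, Clec4f (379.2 and 354.7), C1qb (1214.2 and 765.8) and Lyz2 (690.4 and 523.4) read lower, and Csf1r (558.7 and 702.1) higher. Cd5l was above the floor in the negative array only, at 339.5 and 144.8. Vsig4, Adgre1 and Cd68 were among those below the floor in both. Sinusoidal endothelial markers had 10 of 12 above the floor, 5 higher and 3 lower, with sums of 5344.2 and 5609.2, and Cdh5 read 283.0 and 507.0 (0.84) in 1 probe set and was below the floor in its other, at 217.4 and 216.1. By their brightest probe sets, Clec4g (1255.2 to 1418.4, 0.18), Fcgr2b (0.35), Kdr (0.19) and Stab2 (0.11) were higher too. Oit3 (498.1 to 436.7) and Gpr182 (443.2 to 403.9) were lower. Eng read 464.8 in the negative array and 168.3, below the floor, in the positive one, so its log2 ratio of -0.48 is a bound. Pecam1 was below the floor in both.

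Stellate cell and fibroblast markers had 8 of 11 above the floor, 4 higher and 4 lower, with sums of 4347.5 and 4058.9. Lymphocyte markers, which bear on Batf, had 3 of 11 above the floor in at least 1 array, with sums of 1781.9 and 1700.6. Of these, Cd2 read higher (348.0 and 549.6), and Cd8a (310.6 and 258.3) and Cd79a (274.0 and 114.5) were above the floor in the negative array only and have no direction. Cd3e, Cd4 and Ms4a1 were below it. Erythroid markers had 4 of 5 above the floor, 3 higher and 0 lower, with sums of 2835.1 and 3056.5. All 5 cholangiocyte markers (sums of 498.5 and 692.9) and all 6 neutrophil markers (208.6 and 390.2) were below the floor in both arrays. Among the latter, S100a8 read 23.6 and 253.1. In RNA of mixed cells, fewer cells of a type and less RNA per cell cannot be told apart. The part of these cells in the AP-1 ratios was not tested.

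Other settings left the 6 measured members on the same side. Over 8 alternatives the ratio ran from 1.35 to 1.41 for Maff, from 1.20 to 1.27 for Atf3, from 0.25 to 0.36 for Fos and from 0.02 to 0.12 for Junb. Junb was closest to 0 after quantile normalization (0.02) and loess correction (0.04). Those same corrections raised Jund to 0.51 and 0.52 and Jun to 0.43 and 0.44, all past the technical SD of the main settings, and the mean over probe sets put Jun at 0.47. Whether these 2 genes pass that limit therefore depends on the setting, and on the pairs over which the SD is taken. The limit is also that of a difference between 2 ratios, which is wide for 1 ratio if errors are independent. No alternative brought either gene to 2-fold.

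**Figure D4:**
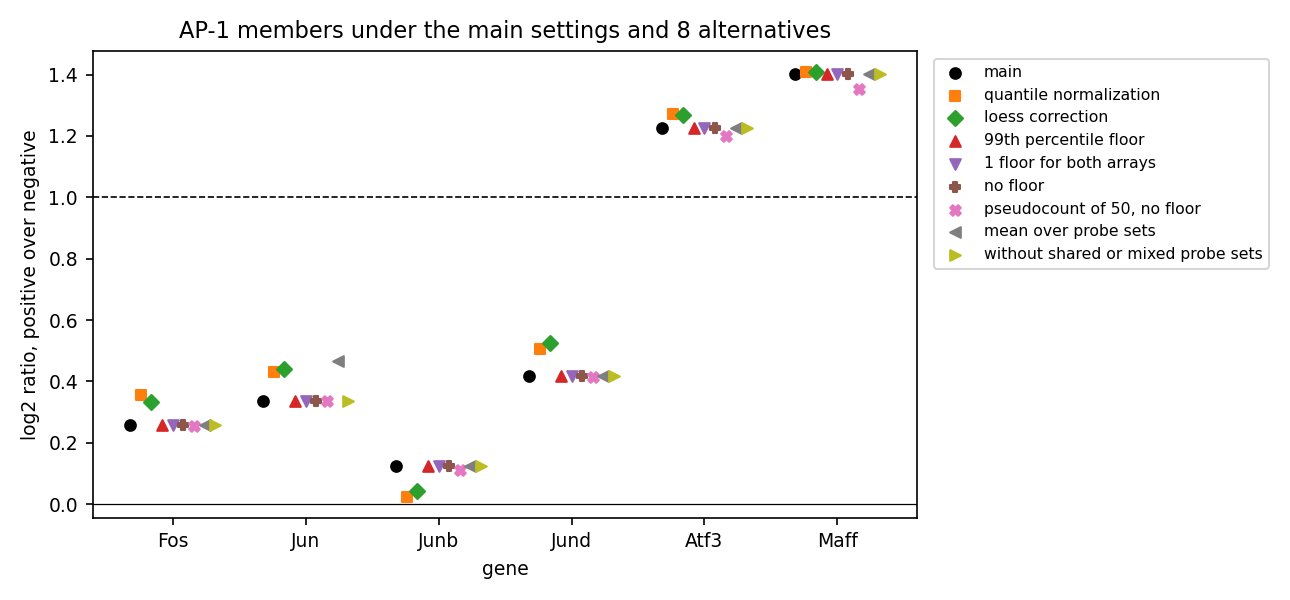
Positive-over-negative log2 ratio of the 6 measured AP-1 members under the main settings (black circle) and 8 alternatives, 1 symbol per setting; the dashed line marks 2-fold. Maff and Atf3 stay above the line and Fos, Jun, Junb and Jund below it in all 9.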

How the data were processed

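RNA of 2 samples, 1 Ezrin T567D-negative and 1 Ezrin T567D-positive, was measured on 1 array each, and groups came from the group label. The values deposited by the authors are linear intensities of probe sets, made with MAS5 per the submitters' processing notes. Their 2% trimmed mean was 500.0 in both arrays, so a shift of the whole transcriptome cannot be seen. The MAS5 version is not given in the sources used here.

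Besides 64 controls, 34945 probe sets had a single symbol, 932 had several and 9160 had none. Those with a single symbol were used, and the one with the highest mean signal stood for its gene. A gene below its floor in 1 array has a bound, computed with the dim signal raised to the floor. Where the bound pointed away from the measured side, the log2 ratio was set to 0 (875 of 10178 genes). Genes below the floor in both arrays have no ratio. No count, depth or replicate error exists for these arrays.

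The members, the 7 lists of pathway and stress genes and the 8 of cell type markers were chosen with earlier results of these data known. Named genes are all members, and of each pathway list those past 2-fold and the 2 measured in both arrays with the largest ratios; others serve as examples, picked after their values were seen. The motifs TGACG and TGACATCA were added after the sequences were seen. Promoter windows are from RefSeq (GRCm38.p6). The ratio and floor rules were run on fold changes planted without noise, which checks their arithmetic only. Alternatives were quantile normalization, loess correction (span 0.3), a 99th percentile floor, 1 floor, no floor, a pseudocount of 50, the mean over probe sets and leaving out shared or mixed probe sets. Python 3.11.15, pandas 2.3.3 and statsmodels 0.14.6 were used.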

Additional observations from a re-analysis of the deposited data

How the results depend on the processing

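Under all 8 alternatives 2 AP-1 members, Maff and Atf3, were 2-fold higher, and the median was 0.34 to 0.44 where a floor limited it to members above the floor (main 0.34). It was 0.30 without a floor and 0.29 with the pseudocount, both over all 10 members. Without a floor 1 member, Batf, was 2-fold lower, from signals below the floor in both arrays. Over all genes, 136 were 2-fold higher and 59 lower with the main settings. The higher count was 80 with the 99th percentile floor, 83 with 1 floor for both arrays, 1628 without a floor and 723 with a pseudocount of 50. The lower count was 1654 without a floor, 709 with the pseudocount and 38 with the mean over probe sets. The settings without a floor add genes at low signal. With 1 floor, the floor of the negative array rises from 252.66 to 334.04, which shrinks the bounds of genes above the floor in the positive array only. The lower count stayed at 59 there. The share of that shift due to the bounds, and the cause of the other shifts, were not tested. Several list medians moved by over 1.5 times. Over these alternatives and the genes measured in both arrays, added after seeing the data, the AP-1 targets ran from 0.16 (1 floor for both arrays; 0.25 with the pseudocount) to 0.49. The phosphatases ran from 0.16 (both without a floor and with the pseudocount; 0.23 with 1 floor) to 0.56, and the other immediate early genes from 0.27 to 0.54 (without shared or mixed probe sets). Medians near 0 changed sign: the other dimer partners ran from -0.01 to 0.13, the MAP kinase cascades from -0.02 to 0.17 (measured in both arrays), the promoter factors from -0.05 to 0.23 (mean over probe sets) and the heat shock genes from -0.02 to 0.10. No paired analysis was possible because each group holds 1 array. One array per group, with Fosb, Fosl1, Fosl2 and Batf at or below the floors, limits what can be said of the family.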
